A study of Mus musculus with 26 samples.

Results

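The Zic genes encode zinc finger transcription factors related to the GLI proteins of the Hedgehog pathway. Most of them lie in the mouse genome as neighbouring pairs transcribed away from each other, Zic1 with Zic4 and Zic2 with Zic5. They act early in the neural plate, neural crest and cerebellum, and Zic2 is also known as an enhancer-binding factor in pluripotent cells. Start sites of such developmental genes are often rich in CG dinucleotides.

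Open chromatin at the 2 loci was read from ATAC-seq peaks, the stretches where the Tn5 transposase inserted adapters more often than its surroundings. Members were the regions formed by merging overlapping peaks of all 26 lists that touched the span of Zic1, Zic4, Zic5 or Zic2 with 50 kb on each side. There were 18 such regions of 75600 in all, 8 at the Zic1-Zic4 locus and 10 at the Zic2-Zic5 locus, and they held 176 of the 451563 peaks. Gene positions were those of GRCm38.p6, and the peaks are in mm10, the name the submitters' processing notes use for that build. The windows were chr9:91308058-91439351 and chr14:122409160-122530328.

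The libraries were from mouse pluripotent cells, each from 50000 cells. The first set had 3 libraries for each of 6 cultures. These were naive ES cells in 2iL medium at passage 16 (ES), formative stem cells in A3XR medium at passage 21 (FS1) and passage 29 (FS2), epiblast stem cells in AF medium at passage 22 (EpiSC_AF), and epiblast stem cells in AFX medium at passage 14 (EpiSC_AFX1) and passage 16 (EpiSC_AFX2). In the comparisons, FS stands for the libraries of FS1 with those of FS2, and EpiSC_AFX for both AFX groups. The labels number FS1 and FS2 apart, and likewise the AFX groups, so the groups pooled differ in label number as well as in passage. Each pooled type of 6 libraries holds 3 from each group. The Rd2 set had 2 libraries of ES cells in 2iL at passage 33, with the source label Rd2GFP (Rd2_ES). It had 4 of epiblast-like cells induced from ES cells for 2 days in AF with KSR, of which the GFP-low fraction was taken (Rd2_EpiLC). It also had 2 of epiblast stem cells in AFX at passage 16 (Rd2_AFX). All 3 libraries of a first-set group carry the same passage, and nothing in the labels says whether they came from separate cultures. Every p below therefore measures only the spread between these libraries, which may be technical.

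List length moves any count of peaks, and read depth was unknown. ES lists held 8044 to 10961 peaks, FS2 lists 11796 to 14147, FS1 lists 23883 to 31263, EpiSC_AF lists 15505 to 24824, and EpiSC_AFX lists 17701 to 29575. Rd2_ES lists held 471 and 2576 peaks, Rd2_AFX lists 11252 and 10719, and Rd2_EpiLC lists 7469 to 26045. Each result for the first set is therefore given for the lists as deposited and for the 8044 peaks of highest −log10 p in each list, that being the length of the shortest. Markers were looked for at either end of a gene, to a distance of 1 kb, in the lists as deposited. The 5 naive genes did not move together. Zfp42 had a peak there in all 3 ES lists, 0 of the 6 FS, 1 of the 3 EpiSC_AF and 0 of the 6 EpiSC_AFX lists, but Tfcp2l1 had one in 0, 5, 3 and 6 of them, Klf4 in 2, 4, 3 and 6, Tbx3 in 3, 4, 3 and 6, and Esrrb in 0, 0, 0 and 1. Of the 5 formative and primed genes, Tcf15 had one in 0 ES, 6 FS, 3 EpiSC_AF and 6 EpiSC_AFX lists, Pou3f1 in 1, 6, 3 and 6, Fgf5 in 0, 4, 3 and 6, Sox3 in 0, 2, 3 and 6, and Otx2 in 0, 1, 0 and 0. Among genes taken as active in all these cells, Actb had none in any of the 26 lists. Gapdh had one in 1 ES, 5 FS, 3 EpiSC_AF and 6 EpiSC_AFX lists, and Pou5f1 in 1, 4, 3 and 6. Fewer ES lists with a peak were thus also seen at these genes. The absence of a peak was accordingly not read as closed chromatin.

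Start-site sequence was at hand for 3 of the 4 genes. The promoters below run from 250 bases before to 50 bases after the start, 5′ to 3′ on the gene's strand, from RefSeq in GRCm38.p6. They are shown because a peak lay over the first and the second of them in most lists and over the third in none. The third lies inside the Zic4 span, whose 5′ end, at position 91365631, is upstream of it. Capitals mark the motifs searched on both strands. These were the GC box with letters GGGCGG, the CCAAT box with letters CCAAT, the TATA box with letters TATAAA, the octamer with letters ATGCAAAT, the SOX motif with letters ACAAAG, the ZIC motif with letters CAGCAGG and the E-box with letters CACGTG, which reads the same on both strands and was counted once.
Zic1, chr9:91365719-91366018, minus strand: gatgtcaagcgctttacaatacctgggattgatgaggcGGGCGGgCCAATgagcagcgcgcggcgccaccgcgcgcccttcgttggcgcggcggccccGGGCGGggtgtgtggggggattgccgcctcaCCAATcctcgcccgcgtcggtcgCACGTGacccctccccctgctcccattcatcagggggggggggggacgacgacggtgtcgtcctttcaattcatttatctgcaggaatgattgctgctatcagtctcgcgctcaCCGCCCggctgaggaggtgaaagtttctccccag
Zic5, chr14:122465609-122465908, minus strand: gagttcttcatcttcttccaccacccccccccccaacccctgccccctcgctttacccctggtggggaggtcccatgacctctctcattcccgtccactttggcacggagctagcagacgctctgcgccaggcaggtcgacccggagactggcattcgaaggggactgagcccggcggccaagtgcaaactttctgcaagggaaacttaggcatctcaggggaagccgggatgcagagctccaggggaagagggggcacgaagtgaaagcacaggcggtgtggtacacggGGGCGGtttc
Zic4, chr9:91368722-91369021, plus strand: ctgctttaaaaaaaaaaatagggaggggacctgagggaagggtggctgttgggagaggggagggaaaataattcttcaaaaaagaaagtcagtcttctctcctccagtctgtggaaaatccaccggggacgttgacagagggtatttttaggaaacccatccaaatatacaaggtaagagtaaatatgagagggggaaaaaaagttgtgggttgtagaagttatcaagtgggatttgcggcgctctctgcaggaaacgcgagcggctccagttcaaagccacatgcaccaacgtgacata

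The Zic1 promoter held 3 GC boxes, 2 CCAAT and 1 E-box, the Zic5 promoter 1 GC box, and the Zic4 promoter none of the 7 motifs. Of 17492 promoters of protein-coding genes of the same length, 46.3% held a GC box, 39.0% CCAAT and 7.90% the E-box. The other motifs were in none of the 3, against 13.3% of all promoters for TATAAA, 1.71% for the octamer, 16.7% for the SOX motif and 10.3% for the ZIC motif. The GC content was 65.3% for Zic1, 62.7% for Zic5 and 46.0% for Zic4, against a median of 56.3% over all promoters. Zic1 had 31 CG dinucleotides, with a ratio of observed to expected of 0.969 that exceeded those of 89.5% of promoters. Zic5 had 15 with a ratio of 0.510, above 45.6% of promoters, and Zic4 had 8 with a ratio of 0.545, above 47.9%. The median ratio over all promoters was 0.576. These motif matches are a description of the letters only.

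The region at the Zic1 start, chr9:91364727-91366420, separated ES from every other culture of the first set in the lists as deposited. It overlaps the span of Zic1 and holds the 5′ end of the span of Zic4, at position 91365631, and its peaks could belong to either gene. A peak was present in 3 of 3 FS1, 3 of 3 FS2, 3 of 3 EpiSC_AF, 3 of 3 EpiSC_AFX1 and 3 of 3 EpiSC_AFX2 lists and in 0 of 3 ES lists. Of 67023 regions with a peak in the first set, 1.35% had this pattern of all 15 other libraries and no ES library, and of the 17492 promoters 2.24% did. In the Rd2 set, 3 of 4 Rd2_EpiLC and 1 of 2 Rd2_AFX lists had a peak and neither Rd2_ES list did.

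These peaks differed widely in strength within their lists. The share of its own list that was no stronger ran from 1.16% in FS2 replicate 2 to 81.9% in FS1 replicate 1. In FS2 it was 33.9%, 1.16% and 26.2%, so the FS2 replicate 2 peak was among the weakest of its list of 11796. By −log10 p, they ranked 4792, 16293 and 5721 in FS1, 9353, 11660 and 9570 in FS2, 5930, 16672 and 11628 in EpiSC_AF, 14936, 8333 and 5001 in EpiSC_AFX1, and 9400, 11807 and 13650 in EpiSC_AFX2. Only 4 of the 15 were thus among the strongest 8044, namely 2 of FS1, 1 of EpiSC_AF and 1 of EpiSC_AFX1. FS2, whose lists in the first set come nearest in length to those of ES, had all 3 peaks beyond rank 8044, and 2 of the 3 lay within 10961, the length of the longest ES list. The part of list length in the absence from ES was not tested beyond this. In the Rd2 set the ranks were 3663, 4755 and 12496 in Rd2_EpiLC replicates 1, 2 and 4 and 3623 in Rd2_AFX replicate 1.

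**Figure D1:**
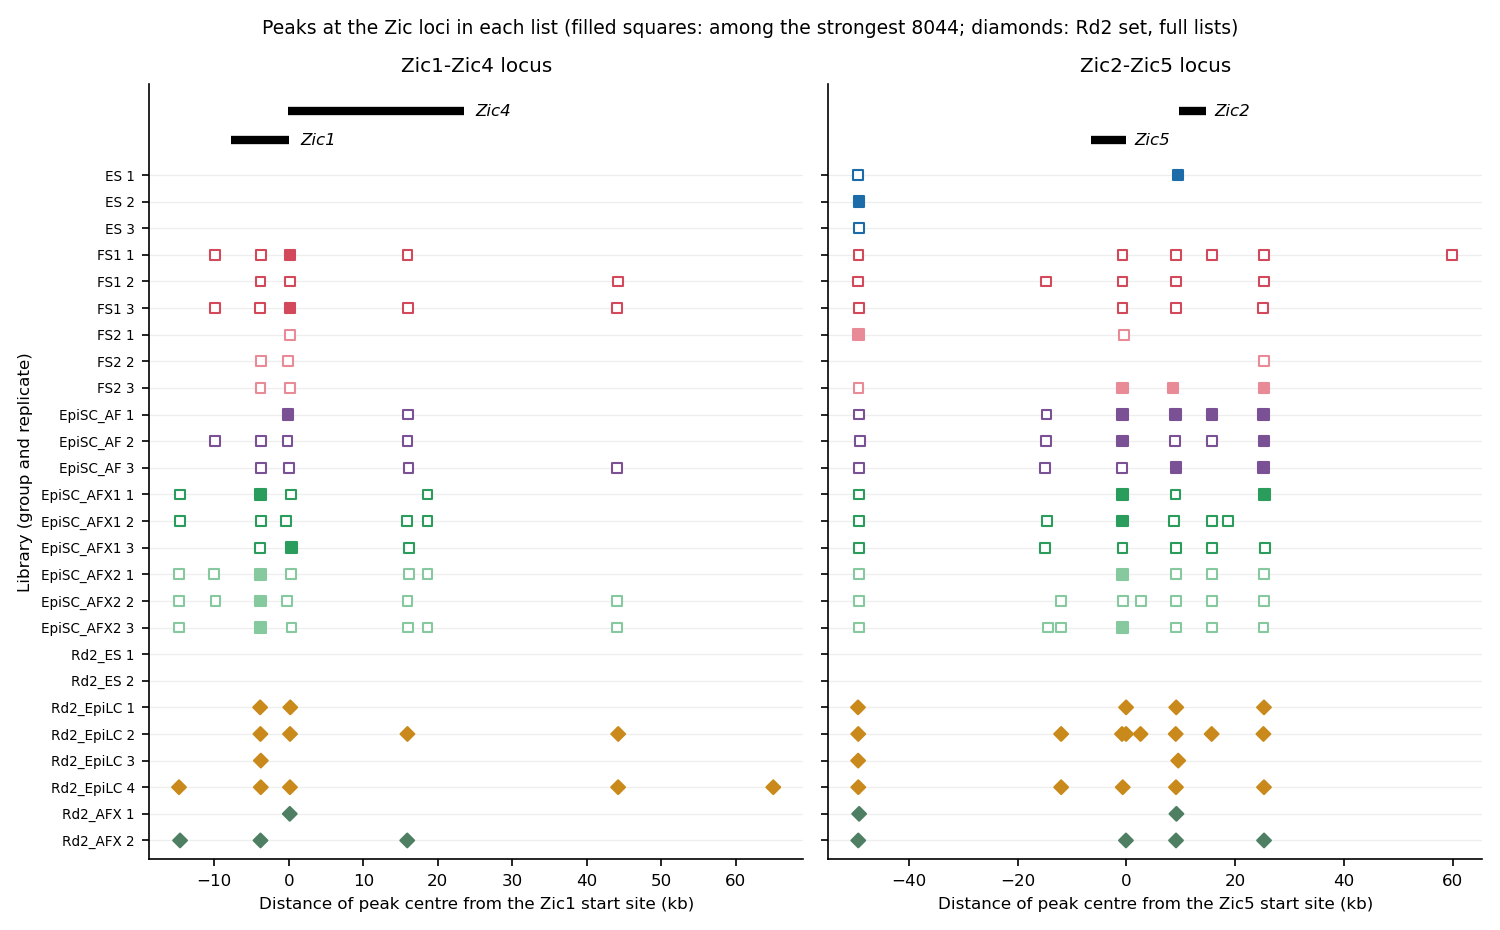
Peaks at the Zic1-Zic4 locus (left) and the Zic2-Zic5 locus (right); the x axis is the distance of each peak's centre from the Zic1 or the Zic5 start site in kb and each row is a library. Markers show centres and not widths: filled squares are peaks among the strongest 8044 of a first-set list, open squares its weaker peaks, diamonds peaks of the Rd2 set, and black bars the gene spans to scale. The ES rows hold no peak on the left and 4 on the right.

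The peaks at the Zic1 start had one stretch in common, just upstream of the gene. All 19 peaks of the 26 lists shared 31 bases, chr9:91365897-91365927, which lie 129 to 159 bases upstream of the annotated start. The limit at 91365927 was set by the weak FS2 replicate 2 peak. On the Zic1 strand this stretch holds 1 of the 3 GC boxes, in capitals.
Zic1 shared stretch: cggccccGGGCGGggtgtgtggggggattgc
The annotated start itself lay within the peak in 3 of 3 EpiSC_AF, 1 of 3 EpiSC_AFX1, 1 of 3 EpiSC_AFX2, 1 of 3 FS2 and 0 of 3 FS1 lists, and in none of the 4 Rd2 peaks. The Zic4 start in the promoter table, at position 91368972, had no peak within its 300 bases in any of the 26 lists. The 5′ end of the whole Zic4 span, at position 91365631, lay within the Zic1 start region, so Zic4 was not shown to lack a peak at its start.

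Peak width at the Zic1 start differed between cultures. The peaks were 250, 150 and 164 bp long in FS1 and 191, 638 and 150 bp in FS2. They were 678, 808 and 1242 bp in EpiSC_AF, 541, 1307 and 578 bp in EpiSC_AFX1, and 565, 967 and 583 bp in EpiSC_AFX2. All 3 FS1 peaks were shorter than all 9 EpiSC peaks, while FS2 overlapped them through replicate 2 alone. FS1 and EpiSC lists had close median peak lengths, at 290 to 300 bp and 290 to 307 bp. In the Rd2 set the peaks were 132 to 170 bp in Rd2_EpiLC and 154 bp in Rd2_AFX replicate 1, so the Rd2_AFX peak was not wide. This difference was noticed after the values were seen and was not tested.

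Within the Zic1 gene, 3.58 kb from the start, the region chr9:91361652-91362186 was the other frequent one of this locus, with a peak in 18 of 26 lists. In the lists as deposited it was present in 6 of 6 EpiSC_AFX, 3 of 3 FS1, 2 of 3 FS2, 2 of 3 EpiSC_AF and 0 of 3 ES lists. It was strongest in EpiSC_AFX2, where it ranked 3708, 2963 and 6347 in its lists, with fold enrichments, the authors' own ratio for a peak, of 6.39, 6.33 and 4.93. In EpiSC_AFX1 the ranks were 6283, 17581 and 16471, and in FS1 they were 18463, 8575 and 10067. At equal list length the region was present in 3 of 3 EpiSC_AFX2, 1 of 3 EpiSC_AFX1 and 0 of 12 other first-set lists, so that 4 of the 6 EpiSC_AFX lists and none of the FS lists had it. All 4 Rd2_EpiLC lists had a peak there, which in replicate 3 ranked 7012 of 7469 and so was among the weakest of that list. One of 2 Rd2_AFX lists had it. The 18 peaks shared 37 bases, chr9:91361975-91362011.

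The other 6 regions of the Zic1-Zic4 locus had weaker peaks, none of which was among the strongest 8044 of a first-set list. The region within Zic4, chr9:91381400-91382016, was present in 3 of 3 EpiSC_AF, 5 of 6 EpiSC_AFX, 2 of 3 FS1, 0 of 3 FS2 and 0 of 3 ES lists. Another within Zic4, chr9:91384270-91384476, was seen in 4 of 6 EpiSC_AFX lists and in no other list of either set. The region chr9:91350904-91351270, over the spans of the lncRNAs A730094K22Rik, Gm40545 and Gm40546, was present in 5 of 6 EpiSC_AFX lists, in 0 of 6 FS and 0 of 3 EpiSC_AF lists, and in 1 Rd2_EpiLC and 1 Rd2_AFX list. The regions chr9:91355570-91356069, outside any gene span, and chr9:91409751-91410167, within the lncRNA Gm29478, were each in 2 of 3 FS1, 1 of 3 EpiSC_AF and 2 of 3 EpiSC_AFX2 lists, and the latter also in 2 Rd2_EpiLC lists. The last region, chr9:91430750-91430859, was a single peak of Rd2_EpiLC replicate 4.

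At the Zic2-Zic5 locus, ES had peaks at 2 of the 10 regions. The most widely shared region of both loci, chr14:122416045-122416997 within the span of the lncRNA Gm5089 and 48.7 kb from the Zic5 start, had a peak in 23 of 26 lists. These were 3 of 3 ES, 3 of 3 FS1, 2 of 3 FS2, 3 of 3 EpiSC_AF, 6 of 6 EpiSC_AFX, 4 of 4 Rd2_EpiLC and 2 of 2 Rd2_AFX lists. Its ranks in ES were 9071, 2878 and 8631, and at equal list length only 1 ES and 1 FS2 list kept it. The 23 peaks shared 33 bases, chr14:122416386-122416418.

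The region at the Zic5 start, chr14:122464120-122465746, was present in 3 of 3 FS1, 2 of 3 FS2, 3 of 3 EpiSC_AF, 6 of 6 EpiSC_AFX and 0 of 3 ES lists as deposited. Its ranks were 5945, 4034 and 9833 in EpiSC_AF, 7881, 6616 and 8721 in EpiSC_AFX1, 4527, 9025 and 7001 in EpiSC_AFX2, and 8959, 11585 and 8718 in FS1. At equal list length it was present in 2 of 3 EpiSC_AF, 4 of 6 EpiSC_AFX, 1 of 3 FS2, 0 of 3 FS1 and 0 of 3 ES lists, the most of any of the 18 regions. Only 1 of the 2 FS2 peaks, of rank 7940, was within the strongest 8044, and the other ranked 11856. In the Rd2 set, 3 of 4 Rd2_EpiLC, 1 of 2 Rd2_AFX and 0 of 2 Rd2_ES lists had a peak.

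The region at the end of Zic2 that faces Zic5, chr14:122473611-122475497, overlaps Zic2 and the lncRNA 2610035F20Rik. A peak was present in 3 of 3 FS1, 1 of 3 FS2, 3 of 3 EpiSC_AF, 6 of 6 EpiSC_AFX and 1 of 3 ES lists. The single ES peak, in replicate 1, was 264 bp long and ranked 2983, and the single FS2 peak, in replicate 3, was 156 bp long and ranked 3109. These 2 do not overlap each other, so the peaks of this region had no stretch in common. At equal list length only these 2 and 2 EpiSC_AF peaks were kept. All 4 Rd2_EpiLC and both Rd2_AFX lists had a peak, and neither Rd2_ES list did. The end of the Zic2 span that faces Zic5 is at position 122475384. It lay within the peaks of FS1 replicate 1, EpiSC_AF replicate 2, EpiSC_AFX1 replicate 3, every EpiSC_AFX2 replicate and Rd2_AFX replicate 1. Every other peak of the region ended before it.

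Most first-set peaks at the Zic5 start and in the Zic2 region were wide. At Zic5 they were 1585 to 1618 bp in FS1, 1332 to 1541 bp in EpiSC_AF, 1529 to 1533 bp in EpiSC_AFX1, 1415 to 1480 bp in EpiSC_AFX2, and 802 and 1520 bp in the 2 FS2 lists with a peak. Over 99% of each FS1 and EpiSC list was shorter: the lowest such share was 99.2%, in EpiSC_AF. At Zic2 the peaks were 1158 to 1395 bp in FS1, 1010 to 1786 bp in EpiSC_AF, 1160 to 1601 bp in EpiSC_AFX1 and 1307 to 1363 bp in EpiSC_AFX2, while the single FS2 and ES peaks there were the short ones of 156 and 264 bp. FS1 was thus as wide as EpiSCs at Zic5, which it was not at Zic1. In the Rd2 set, the Zic5 start had short peaks of 123 bp in Rd2_EpiLC replicate 1 and 174 bp in Rd2_AFX replicate 2, separate peaks of 441 and 155 bp in Rd2_EpiLC replicate 2 and 1 wide peak of 1453 bp in Rd2_EpiLC replicate 4. At the Zic2 region the Rd2 peaks were mostly wide, with 1058, 1212, 215 and 1156 bp in Rd2_EpiLC and 1200 and 947 bp in Rd2_AFX.

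**Figure D2:**
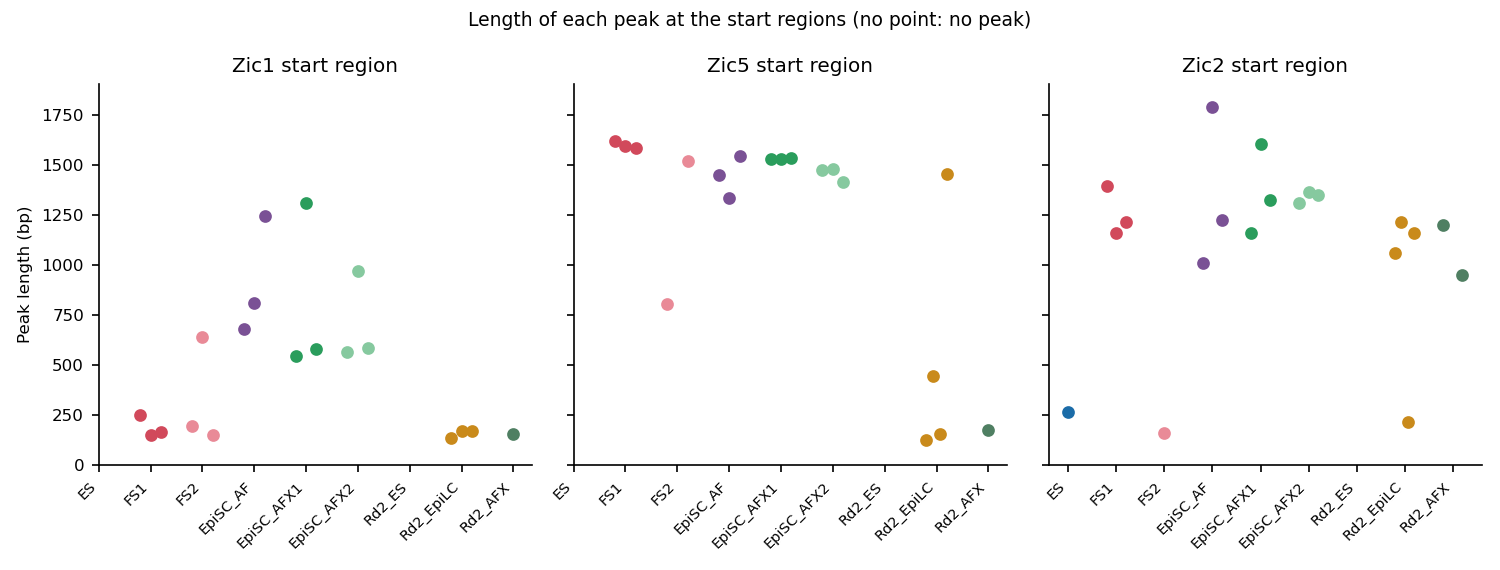
Length in bp of each peak at the Zic1, Zic5 and Zic2 start regions, by group, in the lists as deposited; each point is a peak and a group with no point had none. FS1 peaks stand at 150 to 250 bp at Zic1 and at 1585 to 1618 bp at Zic5, while the EpiSC groups of the first set stand at 541 bp or more in all 3 regions.

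Most of the other regions of this locus lay within neighbouring genes. The region chr14:122490465-122491330, within the span of Pcca, a gene of propionate metabolism, and 10.1 kb from Zic2, had a peak in 3 of 3 FS1, 2 of 3 FS2, 3 of 3 EpiSC_AF, 5 of 6 EpiSC_AFX and 0 of 3 ES lists. It was strongest in EpiSC_AF, with ranks of 6736, 7439 and 5164, and was kept there in 3 of 3 lists at equal length, against 1 of 6 EpiSC_AFX, 1 of 6 FS and 0 of 3 ES lists. Its 17 peaks shared 48 bases, chr14:122490878-122490925. The region chr14:122481208-122481530, 0.880 kb from the far end of Zic2, was present in 2 of 3 EpiSC_AF, 5 of 6 EpiSC_AFX, 1 of 3 FS1 and 0 of 3 ES lists. The region chr14:122450375-122451526 was present in 3 of 3 EpiSC_AF, 3 of 6 EpiSC_AFX and 1 of 3 FS1 lists. The remaining 4 regions had a peak in 1 to 4 lists each, and none in an ES or FS2 list, and 2 of them, chr14:122453495-122453742 and chr14:122468036-122468703, lay outside any gene span.

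**Figure D3:**
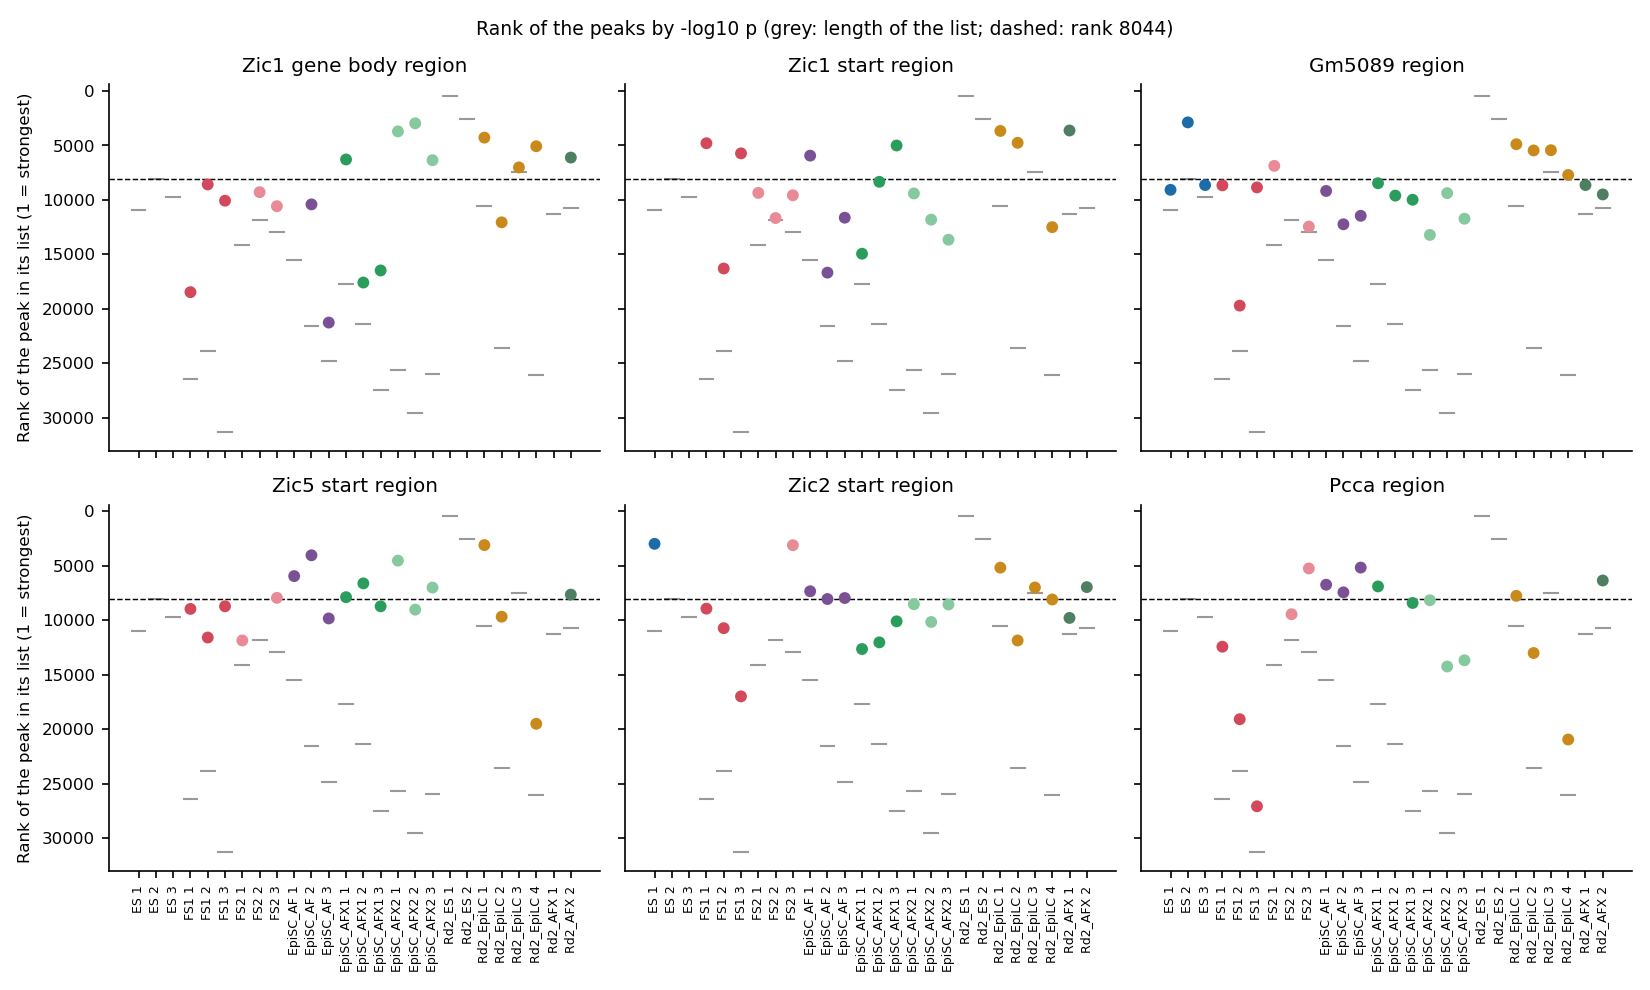
Rank of each peak by −log10 p within its own list (y axis, 1 is the strongest, axis reversed) at the 6 most shared regions, by library; grey dashes mark the length of each list and the dashed line rank 8044. Peaks of the Zic1 gene body region stand above the dashed line in all 3 EpiSC_AFX2 libraries, and those of the Pcca region in all 3 EpiSC_AF libraries.

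Summed over the Zic1-Zic4 locus in the lists as deposited, ES had 0, 0 and 0 peaks, FS1 had 4, 3 and 5, FS2 had 1, 2 and 2, EpiSC_AF had 2, 4 and 4, EpiSC_AFX1 had 4, 5 and 3, and EpiSC_AFX2 had 6, 6 and 6. At the Zic2-Zic5 locus ES had 2, 1 and 1, FS1 had 6, 5 and 4, FS2 had 2, 1 and 4, EpiSC_AF had 6, 6 and 5, EpiSC_AFX1 had 4, 6 and 6, and EpiSC_AFX2 had 5, 7 and 7. FS2 overlapped ES at the Zic2-Zic5 locus and not at the Zic1-Zic4 locus. Per 10000 peaks of a list, the Zic1-Zic4 locus held 0 in each ES list, 0.707 to 1.70 in FS and 1.09 to 2.34 in EpiSC_AFX. The Zic2-Zic5 locus held 1.03 to 1.82 in ES, 0.848 to 3.09 in FS and 1.95 to 2.80 in EpiSC_AFX, so that ES lay within the range of FS there.

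Each gene was tested in the table of 21887 protein-coding genes, by the number of peaks in its span and 50 kb on each side. Zic1 and Zic4 counted the same first-set peaks, so their results are one. Zic5 and Zic2 also counted nearly the same peaks. Only chr14:122416045-122416997 counted for Zic5 alone and only chr14:122525433-122525640 for Zic2 alone. The 4 genes thus stand for 2 loci and are not independent results. In the lists as deposited, ES had 0 ± 0 peaks (SD, n = 3) near Zic1, FS 2.83 ± 1.47 (SD, n = 6) and EpiSC_AFX 5.00 ± 1.26 (SD, n = 6). Near Zic5 the values were 1.33 ± 0.577, 3.50 ± 1.64 and 5.83 ± 1.17, and near Zic2 0.333 ± 0.577, 2.83 ± 1.60 and 4.83 ± 1.17. Every EpiSC_AFX list was above every ES list for all 4 genes, a pattern that 38.9% of all genes had, with 0.311% in the other direction. The differences of ES minus EpiSC_AFX were −5.0 peaks for Zic1 and Zic4 and −4.5 for Zic5 and Zic2 (exact permutation p = 0.0119, the smallest that 3 against 6 libraries allow, adjusted over all genes p = 0.0353). As 33.7% of all genes passed this threshold with the lists as deposited, the 4 calls stand on a background that is itself high. All 4 calls were lost on leaving out any 1 library other than EpiSC_AFX1 replicate 1: by the exact test the adjusted p was then 0.0524 to 0.055 without another EpiSC_AFX library and 0.0917 to 0.0999 without an ES library, against 0.0452 without EpiSC_AFX1 replicate 1. In each case the p before adjustment was the smallest that the remaining libraries allow.

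Between ES and FS in the lists as deposited, every FS list was above every ES list for 2 of the 4 genes, Zic1 and Zic4, against 16.3% of all genes, and 0.297% were higher in every ES list. ES minus FS came to −2.83 peaks for Zic1, with an exact permutation p of 0.0238 (0.158 after adjustment), and to −2.5 for Zic2, with an exact permutation p of 0.0714 (0.242 after adjustment). None of the 4 genes passed after adjustment in the exact test, with 2 under 0.05 before it, and 0% of all genes passed. Between FS and EpiSC_AFX no member had groups that did not overlap, against 0.0914% of all genes higher in every EpiSC_AFX list and 0.00914% in every FS list. FS minus EpiSC_AFX came to −2.17 peaks for Zic1, with an exact permutation p of 0.0411, and −2.33 for Zic5, with an exact permutation p of 0.0303. By the exact test 3 of the 4 genes, Zic1, Zic4 and Zic5, were under 0.05 before adjustment. None was after it, and 0% of all genes passed. The share of all genes under 0.05 before adjustment is not given for either comparison. These counts are therefore not read as results about the Zic genes.

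At equal list length the peaks near each gene were few. Of the 135 first-set peaks at the 2 loci, 27 were among the strongest 8044 of their lists, at 7 of the 18 regions. Near Zic1, ES had 0 ± 0 (SD, n = 3), FS 0.333 ± 0.516 (SD, n = 6) and EpiSC_AFX 0.833 ± 0.408 (SD, n = 6). Near Zic2 the values were 0.333 ± 0.577, 0.500 ± 1.22 and 0.833 ± 0.753. For 0 of the 4 genes did the groups not overlap between ES and FS, against 4.23% of all genes higher in every FS list and 1.72% higher in every ES list. The count was also 0 between ES and EpiSC_AFX, against 5.65% higher in EpiSC_AFX and 2.2% in ES, and between FS and EpiSC_AFX, against 0.0822% higher in EpiSC_AFX and 0.101% in FS. The lowest p was that of Zic1 and Zic4 between ES and EpiSC_AFX, where ES minus EpiSC_AFX was −0.83 peaks (exact permutation p = 0.0476, or 0.41 once adjusted). No member passed after adjustment in any of the 3 comparisons, and 0% of all genes passed in each. Zic1 and Zic4 were the ones under 0.05 before adjustment, for which the share of all genes is not given.

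**Figure D4:**
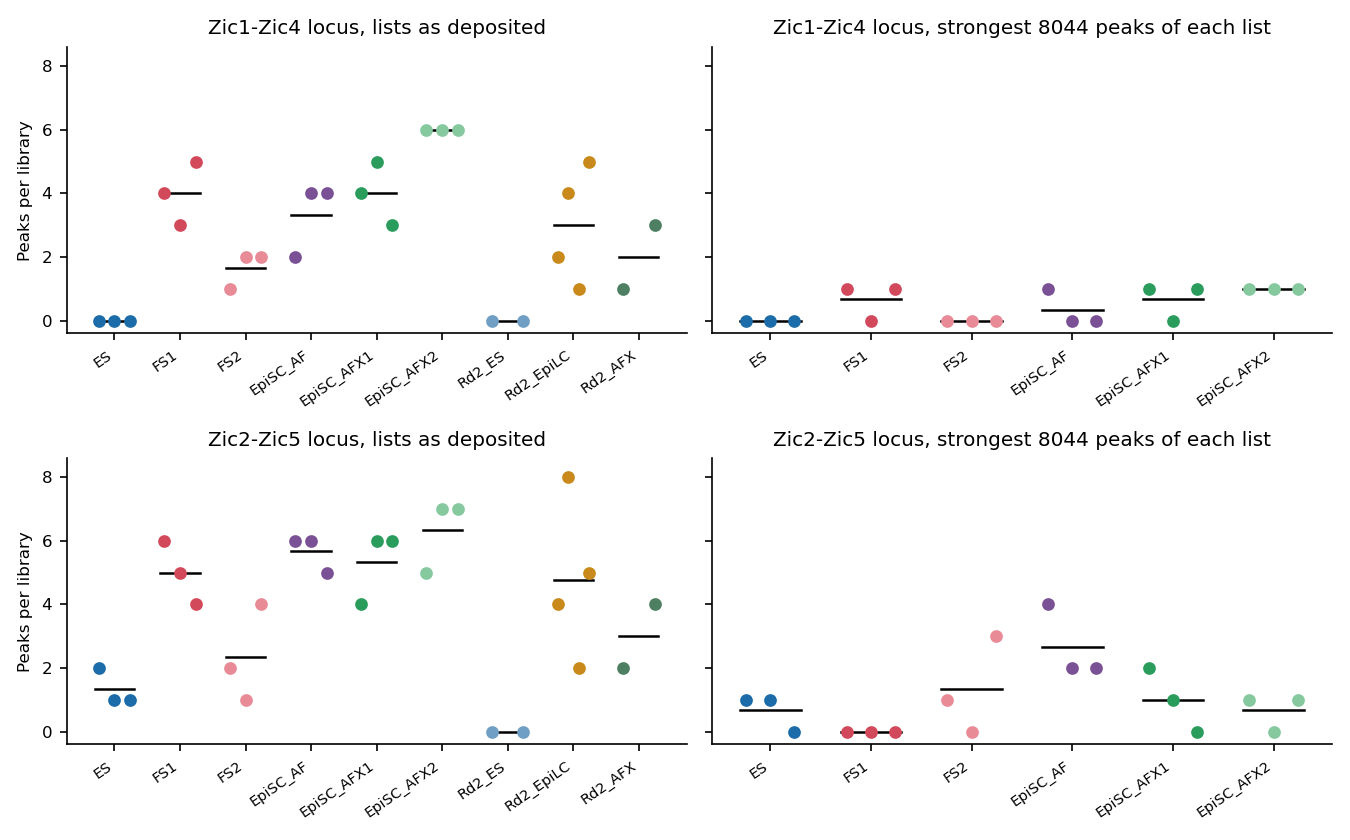
Number of peaks per library at each locus (y axis), by group, in the lists as deposited (left) and among the strongest 8044 peaks of each first-set list (right); points are libraries and bars group means. On the left ES stands at 0 for the Zic1-Zic4 locus and at 1 to 2 for the Zic2-Zic5 locus; on the right no library exceeds 1 and 4 peaks.

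By region, 1 of the 12 member regions seen in ES or FS lists as deposited was held by every FS and no ES list, the Zic1 start, against 2.91% of all regions tested. Between ES and EpiSC_AFX, 3 of 16 were held by EpiSC_AFX only, against 8.23%: the Zic1 start, the Zic1 gene body and the Zic5 start. None was held by ES only, against 0.507% and 0.498%. Between FS and EpiSC_AFX, 0 of 17 were held by one type only, against 0.0253% and 0.0759%. At equal list length the count was 0 of 5 member regions between ES and FS, against 1.71% of all regions in every FS and no ES list and 2.13% the other way round. It was 0 of 6 between ES and EpiSC_AFX, against 2.6% for EpiSC_AFX and 2.75% for ES, and 0 of 6 between FS and EpiSC_AFX, against 0.128% for FS and 0.0535% for EpiSC_AFX.

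FS and EpiSC_AFX were also compared at 11796 peaks, the length of the shortest list of these 2 types, a setting chosen after seeing the data. Peaks near Zic1 then numbered 1.5 ± 0.548 in the 6 FS lists and 1.33 ± 0.516 in the 6 EpiSC_AFX lists (exact permutation p = 1). Near Zic5 there were 2 ± 0.894 and 3 ± 0.632, with an exact permutation p of 0.113 that became 1 on adjustment. No member gene had groups apart, against 0.114% of all genes higher in every FS list and 0.0868% in every EpiSC_AFX list. Of 7 member regions none was held by one type alone, against 0.103% for FS and 0.0624% for EpiSC_AFX. The order of the types near Zic1 thus turned between the list lengths.

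In the Rd2 set, Rd2_EpiLC had 2, 4, 1 and 5 peaks at the Zic1-Zic4 locus and 4, 8, 2 and 5 at the Zic2-Zic5 locus, in lists of 10563, 23608, 7469 and 26045 peaks. Rd2_AFX had 1 and 3, and 2 and 4, and overlapped Rd2_EpiLC at both loci. Rd2_ES had none at either, in lists too short for this to be compared. In the first set, EpiSC_AF had 4, 2 and 2 peaks at the Zic2-Zic5 locus at equal list length, against 1, 0 and 3 in FS2, 1, 1 and 0 in ES, 2, 1 and 0 in EpiSC_AFX1, 1, 0 and 1 in EpiSC_AFX2 and 0 in each FS1 list. EpiSC_AF overlapped FS2 and EpiSC_AFX1 there, and these values were not tested.

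Related genes were read from 2 lists. Of the 6 GLI and GLIS genes, zinc finger factors related to the Zic proteins, 3 were higher in every EpiSC_AFX than ES list as deposited, Gli1, Gli2 and Glis2, with ES minus EpiSC_AFX at −5.0, −3.67 and −5.83 peaks (exact permutation, adjusted p = 0.0353 for each). All genes gave 38.9% for the first pattern and 33.7% for passing after adjustment. At equal list length Glis2 was higher in every EpiSC_AFX list, with 1.33 ± 0.577 in ES and 3.50 ± 0.837 in EpiSC_AFX, and Glis3 in every ES list, with 1.33 ± 0.577 against 0 ± 0 (exact permutation p = 0.0119, or 0.172 once adjusted, in both cases), against 5.65% and 2.2% of all genes with these patterns. Of 8 neural plate and neural crest factors, 7 were higher in every EpiSC_AFX than ES list as deposited and 5 passed after adjustment, beside the same 38.9% and 33.7% of all genes. The largest differences were −3.83 peaks for Tfap2a, a neural crest factor, and −3.67 for Sox1, a neural plate factor (exact permutation, adjusted p = 0.0353 for each), then −2.83 for Pax3 (same p) and −2.83 for Pax6, which did not pass (exact permutation, adjusted p = 0.0816). None of the 8 had groups apart at equal list length in any comparison. Between ES and FS as deposited, Glis2 and 1 of the 8 neural factors were higher in every FS list, against 16.3% of all genes. Neither passed after adjustment in the exact test. The median difference of ES minus EpiSC_AFX in the lists as deposited was −4.75 peaks over the 4 Zic genes, −3.58 over the GLI and GLIS genes, −2.67 over the neural factors and −1.5 over all genes. These medians were −0.667, −0.417, 0 and 0 at equal list length, where several neural factors had no peak in either type. The mean difference over all genes was −0.227 there.

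Zic1 and Zic4 had the same peak number in each of the 18 first-set lists. Among genes more than 500 kb away, the pattern of peak number over these lists at equal length was most like that of Zic1 in Gm10654 (r = 0.876) and Map1s (r = 0.814), and most like that of Zic2 in Vmn1r238 (r = 0.82), Cd3e and Csk (r = 0.781 each). These are descriptions over libraries that share cultures and list lengths, with counts near Zic1 of 0 or 1 in every list.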

How the data were processed

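The data were 26 deposited peak lists, 1 for each ATAC-seq library and so not pooled. The submitters' processing notes name Trim Galore, Bowtie, Picard, MACS2 and the build mm10, without role, order or version, and the control and thresholds are not given in the sources used here. In the deposited files a peak has a score, a fold enrichment (the authors' ratio), and the authors' −log10 p and −log10 q. The deposited score was not used, and −log10 values only ranked or filtered peaks within a list. The shortest peak was 150 bp in the first set and 110 bp in the Rd2 set, and the sets were not tested against each other. No counts of reads were used, so depth was unknown.

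Peaks of all lists that overlapped or touched were merged into regions, and an overlap of 1 bp with a region or gene window counted as presence. The equal length was 8044 peaks by −log10 p. Peak numbers in each of 21887 protein-coding genes of GRCm38.p6 with 50 kb on each side were compared by a two-sided exact permutation test over libraries, with Benjamini-Hochberg adjustment over all genes and a threshold of 0.05, in 3 comparisons (Python 3.11.15, NumPy 2.4.6, pandas 2.3.3). The code was tested on simulated data. Counts of groups that do not overlap are given beside the share of all genes or regions with that pattern. This share is not given for FS1 or FS2 alone, left-out libraries or the replicate block. Exons and introns were not told apart, and for Zic2, with no start in the promoter table, both gene ends were used. All 4 genes were reported; regions named were those within 1 kb of a member's start, those held by one type only, and up to 8 others per locus. Genes of the GLI and neural lists were named when their groups did not overlap, up to 4 per list. The members, lists and tests were chosen with earlier results of these data known. Libraries of a group shared at most 0.0746% of peaks with identical coordinates. Alternatives were other list lengths, ranking by fold, −log10 q of at least 5, other windows, bases covered, a 50% overlap, leaving out each library, and a replicate block. One gene that the rule for patterns like those of the members would name is not reported here.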

Additional observations from a re-analysis of the deposited data

Results flagged for a closer look

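Among the strongest 8044 peaks, 1 of the 6 EpiSC_AFX libraries had 0 peaks at the Zic1-Zic4 locus, EpiSC_AFX1 replicate 2, where the other 5 had 1 each. It stood apart from them by Dixon's criterion for a single distant value. With the lists as deposited it had 5 peaks there. One of the 6 FS libraries, FS2 replicate 3, had 3 peaks at the Zic2-Zic5 locus at equal list length, above the 0 to 1 of the other 5. The criterion is meant to set apart about 1 in 20 groups by chance alone. That rate need not hold for counts this small, where a gap of 1 peak suffices.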

How the results depend on the processing

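Counts of Zic genes whose groups do not overlap, 0 at equal list length in each comparison, became, with the lists as deposited, 2 for ES against FS and 4 for ES against EpiSC_AFX. Of all genes, 16.3% and 38.9% had these patterns. With those lists the counts of Zic genes were 4 for FS1 alone and 2 for FS2 alone against ES, and 2 for FS2 alone against EpiSC_AFX. Leaving out 1 library gave 0 to 3 between ES and FS, 0 to 4 between ES and EpiSC_AFX (2 at equal length without EpiSC_AFX1 replicate 2) and 0 between FS and EpiSC_AFX over both list settings. Regions held by one type only, 0 at equal length, became 1 between ES and FS (4 with FS1 alone and 1 with FS2 alone) and 3 between ES and EpiSC_AFX with the lists as deposited. Leaving out 1 library gave 0 to 3, 0 to 5 and, between FS and EpiSC_AFX, 0 to 1. As deposited, the regions of ES against FS numbered 3 without FS2 replicate 1 and 2 without FS2 replicate 2, and those of ES against EpiSC_AFX 5 without EpiSC_AFX1 replicate 1. The gene count of ES against FS was 3 without ES replicate 1. The longer deposited lists give more peaks by construction. For FS1 or FS2 alone, left-out libraries and the replicate block, the share of all genes or regions is not given. Counts under those settings are therefore not read as results about the Zic loci.

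With a replicate block, these counts were unaltered at equal length, and with the lists as deposited they were 2 and 4 genes and 1 and 3 regions, as without it. The 4 genes called between ES and EpiSC_AFX with those lists were no longer called with the block, where the exact test gave an adjusted p of 0.0946 in place of 0.0353, its p of 0.037 before adjustment being the smallest the block allows. They were also lost in 8 of the 9 fits that left out 1 library (adjusted p of 0.0524 to 0.0999). Same-numbered libraries of different cultures did not deviate together (correlations of −0.0199 to 0.0141, and 5 of 18 libraries closest to their own number), so the numbers were not used as pairs.

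The sign of some equal-length differences in peak number turned, none of which had passed the test after adjustment. With the top 4000 peaks, Zic2 gave 0.167 between ES and FS, 0.333 between ES and EpiSC_AFX and 0.167 between FS and EpiSC_AFX, and Zic5 gave 0.667 and 0.167 in the last 2. Ranking by fold gave 0.50 for Zic5 between ES and EpiSC_AFX, and 100 kb windows gave 0.333 for Zic2 in both comparisons with EpiSC_AFX. FS1 alone gave 0.333 for Zic2 against ES, and FS2 alone 0.50 for Zic5 and 0.167 for Zic2 against EpiSC_AFX. A length of 11796 gave 0.167 for Zic1 and Zic4. Leaving out 1 library at equal length, Zic2 ran from −0.50 to 0.333 between ES and FS (0.333 without FS2 replicate 3). Zic5 ran from −0.333 to 0.167 between ES and EpiSC_AFX, with 0.0667 without EpiSC_AFX1 replicate 1, and from −0.633 to 0.0667 between FS and EpiSC_AFX. The cause was not tested. Settings added after seeing the data were those with FS1 or FS2 alone, the length of 11796, and the block and left-out libraries with the lists as deposited.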
